A study of Homo sapiens with 20 samples.

Results

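The subunits of the oxidative phosphorylation complexes were followed across leucine level, time and experiment in THLE-3 cells. Members were the probe sets whose only annotated symbol named a subunit of complex I (NDUFA, NDUFB, NDUFC, NDUFS or NDUFV with a number), complex II (SDHA to SDHD), complex III (UQCR), complex IV (COX4 to COX8) or the ATP synthase (ATP5). The rule used names only, with no measured value. It found 98 probe sets of 65 genes among the 22215 probe sets of the array. Of these, 92 probe sets of 63 genes passed a filter on weak signal: 27 genes of complex I, 3 of complex II, 6 of complex III, 11 of complex IV and 16 of the ATP synthase. The ATP synthase members included ATP5IF1, an inhibitor of the enzyme that is no structural subunit. The filter removed the only probe sets of COX6A2 and COX7A1, both isoforms of heart and skeletal muscle, and a weaker probe set each of NDUFA2, NDUFA5, NDUFB7 and ATP5MC2.

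THLE-3 cells are an epithelial line derived from adult human liver and immortalised with SV40 large T antigen. Their total RNA was hybridised to 20 Affymetrix arrays of the A chip of the human U133 design, which read a transcript through sets of short probes. Cells were in 0.1 mM leucine, called low, or 2.0 mM leucine, called high. Harvests were made at 0, 30, 60, 120 and 480 min, and every one of the 10 groups had 1 array from the first and 1 from the second experiment. The labels state neither how cells were kept before 0 min nor whether an experiment was a separate culture, and p-values therefore cover only the variation among these arrays, which may be technical. In a cultured line, fewer cells of a kind and less RNA per cell cannot be told apart. The mean deposited intensity of an array lay between 761.8 and 862.6 units. Of the hepatocyte markers, 5 of 9 passed the filter and ALB, the albumin gene, did not. Of the biliary and epithelial markers 4 of 7 passed, the keratins KRT18, KRT8, KRT19 and KRT7, while CDH1, EPCAM and SOX9 did not. Of the stellate and fibroblast markers 7 of 7 passed. So did 2 of 4 endothelium and blood markers, PECAM1 and HBB, and 1 of 4 muscle markers, ACTC1. A marker passed where any of its probe sets did, as CYP3A4 through 1 probe set. Passing therefore does not show that a cell type was present.

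Complexes I to IV carry electrons from NADH and succinate to oxygen and, apart from complex II, pump protons across the inner mitochondrial membrane. The ATP synthase uses the returning protons to make ATP. All complex II subunits and most subunits of the other complexes are encoded in the nucleus, and their genes are known targets of NRF1, of GABPA and other ETS factors, and of YY1. Leucine is an amino acid that activates mTORC1, a kinase known to promote the synthesis of mitochondrial proteins, and its carbon can enter the citric acid cycle.

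The promoters of the members are shown because these genes were read as a group. RefSeq windows (GRCh38.p14) from 250 bases before to 50 bases after the start were found for 57 of the 65 genes and searched on both strands for 3 motifs. The NRF1 core GCATGCGC was in 12 of 57 windows (21.1%), against 4.26% of 15843 windows of protein-coding genes. The ETS motif CCGGAAG was in 17 (29.8% against 14.2%) and the YY1 motif AAGATGGC in 10 (17.5% against 3.91%). No motif contains another, and a match is a description of letters, not a shown binding site. Windows of 28 bases around the first NRF1 core of 1 member each of complexes I, II, IV and V follow on the gene's strand, with the core or overlapping cores of both strands in capitals. No complex III window held the core.
NDUFB4 (chr3:120596167-120596194, plus strand): agagcacttcGCGCATGCGCatatcacc
SDHD (chr11:112086753-112086780, plus strand): agctgtgtttGCGCATGCGCgacgggtg
COX5B (chr2:97645916-97645943, plus strand): gcagagctggGCATGCGCaatttccgcc
ATP5F1C (chr10:7788145-7788172, plus strand): gggagcttcgGCGCATGCGCgctgaggc

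The 120 bases before the start are shown for 3 members that differed between leucine levels at 480 min. COX6B1 had the largest difference, UQCR10 the smallest p and NDUFV1 the only lower value. Capitals mark the ETS motif, which reads on the opposite strand in COX6B1. None of the 3 motifs was in the 120 bases shown of UQCR10 or NDUFV1.
COX6B1 (chr19:35648203-35648322, plus strand): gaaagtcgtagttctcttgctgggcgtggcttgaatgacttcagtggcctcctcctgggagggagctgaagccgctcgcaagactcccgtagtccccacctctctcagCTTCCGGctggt
UQCR10 (chr22:29767249-29767368, plus strand): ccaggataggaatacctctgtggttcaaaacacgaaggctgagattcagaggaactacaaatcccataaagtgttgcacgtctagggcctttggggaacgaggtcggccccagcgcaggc
NDUFV1 (chr11:67606816-67606935, plus strand): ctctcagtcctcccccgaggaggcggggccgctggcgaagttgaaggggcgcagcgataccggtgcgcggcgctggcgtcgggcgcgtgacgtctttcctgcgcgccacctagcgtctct

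At 480 min most subunit transcripts were slightly higher in high than in low leucine, and few single members passed the test. COX6B1, NDUFA2, UQCR10, NDUFA3 and NDUFB3 were higher and NDUFV1 was lower, by 0.23 to 0.39 on the log2 scale. These calls came from a limma fit with the experiment as a block, since each experiment number is shared by all groups. In the fit without the block 0 of 92 members were called (0.27% of all probe sets), with a smallest adjusted p of 0.177. An unadjusted p under 0.05 was reached there by 11 members (12%, against 6.65% of all probe sets). With the block, 5 members were higher (5.43% against 2.48% of all 13329 probe sets) and 1 was lower (1.09% against 1.61%). The changes are the same in both fits and only their errors differ. Each ± below is the standard error from the blocked fit, on log2 values after a pseudocount, which understates the change of weak probe sets.

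COX6B1 encodes a subunit of cytochrome c oxidase on the side facing cytochrome c. Its normalised intensity at 480 min was 2887 and 2755 in low leucine in the first and second experiment, and 3876 and 3608 in high leucine. Both high arrays lay above both low arrays, and the difference was 0.39 ± 0.09 (adjusted p = 0.0305). From 30 to 120 min its values ran from 2829 to 3426 in low and from 2653 to 3454 in high leucine and overlapped. At 0 min it read 2763 and 3213 in low and 3371 and 3365 in high leucine, also without overlap, a difference of 0.17 ± 0.09 (adjusted p = 0.393). The gain in the difference from 0 to 480 min, the interaction, was 0.22 ± 0.13 (adjusted p = 0.371).

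UQCR10 encodes a small subunit of complex III. It read 2499 and 2118 in low and 3059.7 and 2799 in high leucine at 480 min, again without overlap. Its difference was 0.33 ± 0.06 (adjusted p = 0.00517). UQCR11, another small subunit of the same complex, had values of 2785 and 2435 in low and 3406 and 3134 in high leucine, without overlap. Its difference of 0.31 ± 0.09 was not called (adjusted p = 0.0807).

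Complex I supplied 4 of the 6 calls. NDUFA2, an accessory subunit of its matrix arm, read 1975 and 1829 in low and 2544 and 2379.8 in high leucine, a difference of 0.35 ± 0.09 (adjusted p = 0.0351). NDUFA3, an accessory membrane-arm subunit, read 1424 and 1188 in low and 1651 and 1593 in high leucine, a difference of 0.29 ± 0.07 (adjusted p = 0.0377). For both genes the high arrays lay above the low ones. NDUFA2 already read higher in high leucine at 0 min, with 1843 and 2178 in low and 2199 and 2417 in high leucine. That difference was 0.19 ± 0.09 (adjusted p = 0.285), and the interaction with 480 against 0 min was 0.16 ± 0.12 (adjusted p = 0.495).

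NDUFB3, an accessory membrane-arm subunit, read 1038 and 769.0 in low and 1237 and 1019 in high leucine. Its groups overlapped, because the second experiment was lower throughout, and within each experiment the high array was the higher. The difference was 0.28 ± 0.07 (adjusted p = 0.0415). NDUFV1, the core subunit that binds NADH and the flavin, went the other way: 2831 and 3085 in low against 2374 and 2633 in high leucine, with no overlap. It was lower by a log2 difference of -0.23 ± 0.06 (adjusted p = 0.0445).

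**Figure D1:**
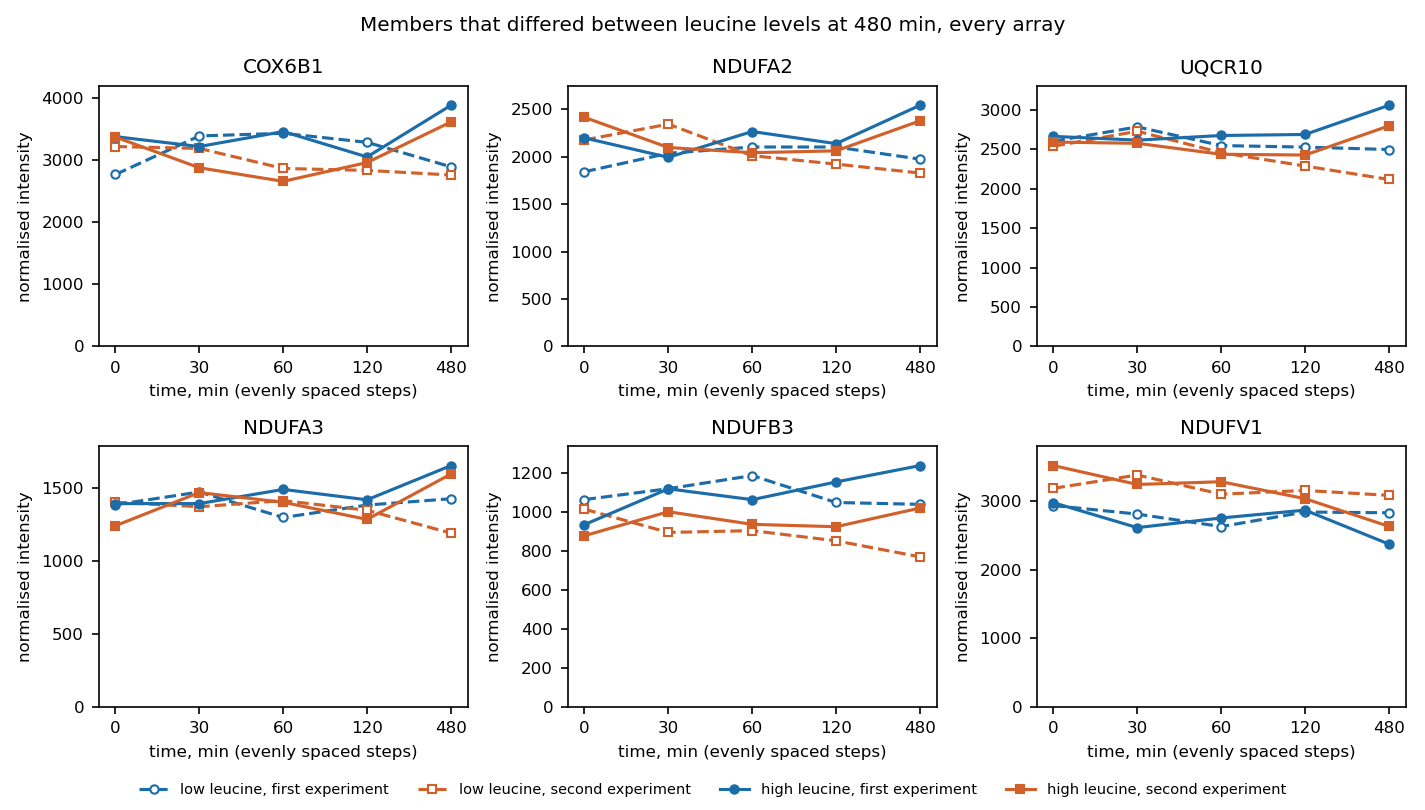
Normalised intensity (array units, from 0) of the 6 members called at 480 min, against time in evenly spaced steps. Each point is 1 array, with filled symbols and solid lines for high leucine and open symbols and dashed lines for low leucine. At 480 min COX6B1 reached 3876 and 3608 in high leucine against 2887 and 2755 in low, and COX6B1 and NDUFA2 lay apart at 0 min too.

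These calls rest on few arrays. Leaving out the low leucine array of the second experiment at 480 min left 0 called members. Leaving out the high leucine array of the first or of the second experiment left 1, and leaving out either low leucine array at 30 min or either high leucine array at 60 min left 3. UQCR10 was called in 27 of 28 alternatives of the blocked fit, COX6B1 and NDUFA2 in 24, NDUFA3 in 17, NDUFB3 in 14 and NDUFV1 in 13. These alternatives include leaving out arrays of other times. COX6B1 and NDUFA2 lost their call whenever any array at 480 min, of either leucine level, was left out. With values as deposited or with median centring NDUFV1 was not called, and the split of higher to lower calls was 5 to 0 and 8 to 0 in place of 5 to 1.

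The remaining members mostly leaned the same way without passing the test. Over the 63 genes, each read by its probe set with the highest mean, 52 differences were positive, with a median of 0.08 (0.06 and 0.10 in the first and second experiment). The median over all 8280 genes was -0.01. Both high arrays lay above both low arrays for 33 of 92 members (35.9%, against 13.4% of all probe sets) and below them for 5 (5.43%, against 13.5%). The sign was the same in both experiments for 71 members (77.2%, against 63.3% of all probe sets), with 61 higher and 10 lower. A similar lean was read in other large protein complexes: the median was 0.07 over 49 mitochondrial ribosomal protein genes, with 36 positive, and 0.11 over 33 proteasome genes, with 25 positive.

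**Figure D2:**
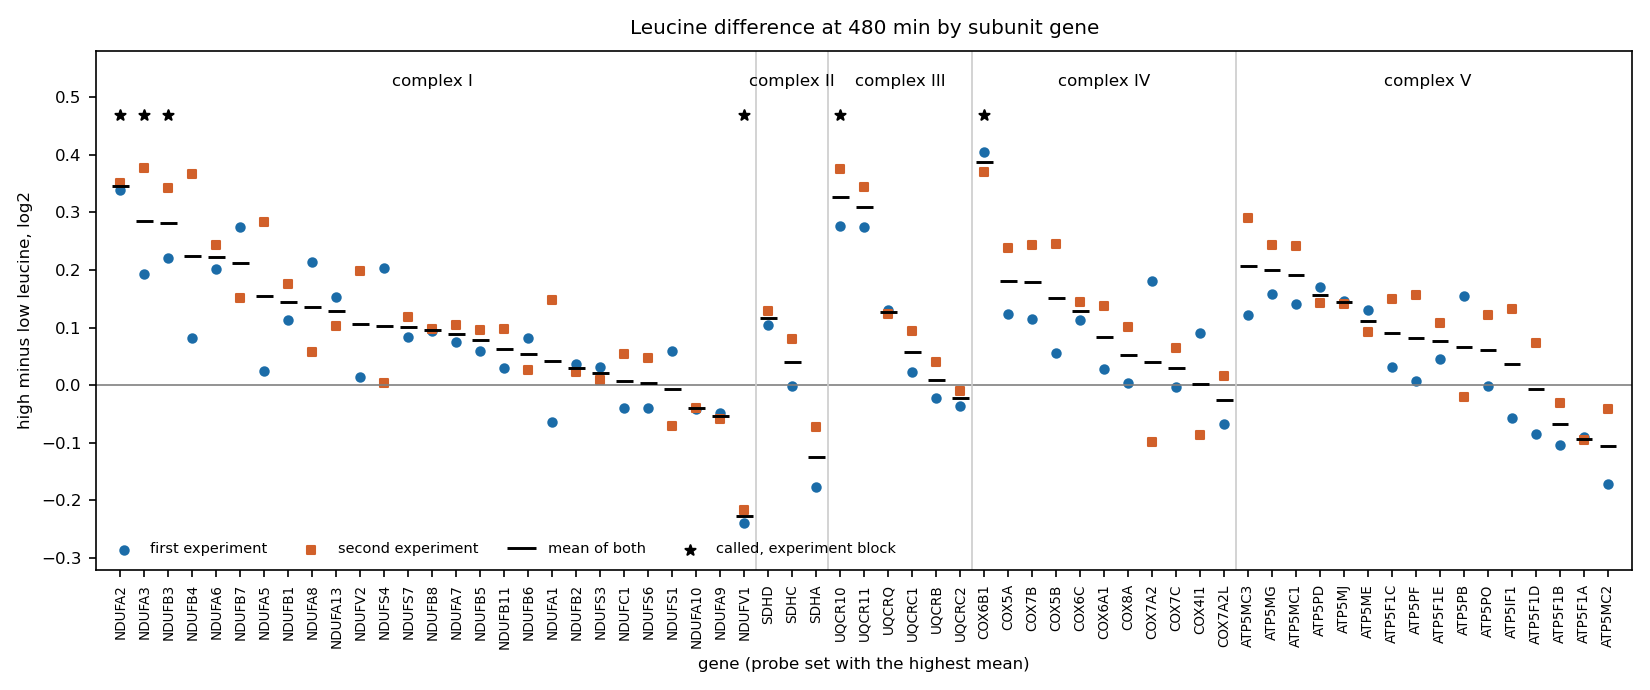
High minus low leucine at 480 min on the log2 scale for each of the 63 subunit genes, grouped by complex and sorted within it. Circles and squares are the first and second experiment, bars are their mean, and stars mark the 6 genes called with the experiment block. Most bars lie above 0, and NDUFV1 has the lowest.

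In complex I and the ATP synthase the median over core or catalytic subunits lay nearer 0 than that over the other subunits. In complex I the 5 core subunits had a median difference of 0.02, with NDUFS1 at -0.01, NDUFS3 at 0.02, NDUFS7 at 0.10 and NDUFV2 at 0.11 beside NDUFV1. The 22 accessory subunits had a median of 0.10, with 20 positive. In the ATP synthase the 5 members of the catalytic F1 part had a median of -0.01. The catalytic pair ATP5F1A and ATP5F1B read -0.09 and -0.07, neither called. The other 11 members of that complex had a median of 0.11, with ATP5MC3 the highest at 0.21 and ATP5MC2 the lowest at -0.11. ATP5MC1, ATP5MC2 and ATP5MC3 encode the same mature c subunit of the rotor ring, and ATP5MC1 read 0.19. The difference between core and other subunits was not tested.

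The medians of the complexes were 0.10 in I, 0.04 in II, 0.09 in III, 0.08 in IV and 0.08 in the ATP synthase. In complex II the catalytic flavoprotein SDHA read -0.12, with 0 calls in that complex. Its probe set gave 2703 and 2825 in low and 2372 and 2678 in high leucine, without overlap. The membrane anchors SDHC and SDHD read 0.04 and 0.12 in their brightest probe sets. Their other probe sets read 0.12, 0.13 and 0.23 for SDHC and -0.03 for SDHD. In complex III the core protein UQCRC1 read 0.06 and UQCRC2 -0.02, with 0.12 in the weaker probe set of UQCRC2. In complex IV the differences were 0.00 for COX4I1 (0.0023), 0.18 for COX5A, 0.15 for COX5B, 0.04 for COX7A2 and -0.03 for COX7A2L, a factor of supercomplex assembly. None of these was called. ATP5IF1 read 0.04.

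Genes of neighbouring mitochondrial functions were read at 480 min with the block, where 4.09% of all probe sets were called in either direction. Of 22 measured assembly factors 1 was higher, NDUFAF1 by 0.26 ± 0.05 (adjusted p = 0.00868), and 1 lower, LRPPRC at -0.28 ± 0.07 (adjusted p = 0.0324). NDUFAF1 assembles complex I and LRPPRC stabilises mitochondrial mRNAs. Of 11 carriers and subunits outside the name rule 1 was higher, NDUFAB1, the mitochondrial acyl carrier protein within complex I, by 0.26 ± 0.06 (adjusted p = 0.0198). CYCS, cytochrome c, read 0.24 ± 0.07 (adjusted p = 0.0962). Of 17 citric acid cycle genes and 14 regulators of mitochondrial biogenesis 0 were called with the block, with medians of 0.04 and 0.00 (-0.0004). ATF4, the transcription factor of amino acid shortage, was lower in high leucine, at -1.05 ± 0.07 (adjusted p = 1.59e-06). Without the block ATF4 was still called (adjusted p = 0.0162), while NDUFAF1, LRPPRC and NDUFAB1 were not (adjusted p = 0.412, 0.691 and 0.412).

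Of the cell type markers 1 keratin, KRT19, was called higher in high leucine at 480 min, by 0.52. The summed intensity of the 7 biliary and epithelial markers was 14010.3 and 26274 in low and 15169 and 26784 in high leucine, and that of the 9 hepatocyte markers was 4528 and 4735 in low and 4327 and 4513 in high leucine. Their part in the leucine difference of the members was not tested.

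Earlier times gave no called member. With the block, 0 of 92 were called at 0 min (0.578% of all probe sets), at 30 and 60 min (0% each), at 120 min (0.03%) and over the mean of all times (0.173%). Without it the counts were also 0, against 0%, 0%, 0%, 0.0075% and 0.0075% of all probe sets. At an unadjusted p under 0.05 the blocked fit held 18 members at 0 min (19.6%, against 17% of all probe sets). It held 1 at 30 min (1.09%, against 4.45%) and 1 at 60 min (1.09%, against 3.14%). At 120 min there were 0 (against 4.51%), and over the mean of all times 9 (9.78%, against 7.11%). Median differences over the 63 genes were 0.00 (0.0001) at 0 min, 0.01 at 30 min, 0.02 at 60 min and 0.01 at 120 min. The lowest member at 0 min was NDUFA5, at -0.47. It read 1318 and 739.9 in low and 1085 and 393.8 in high leucine there.

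**Figure D3:**
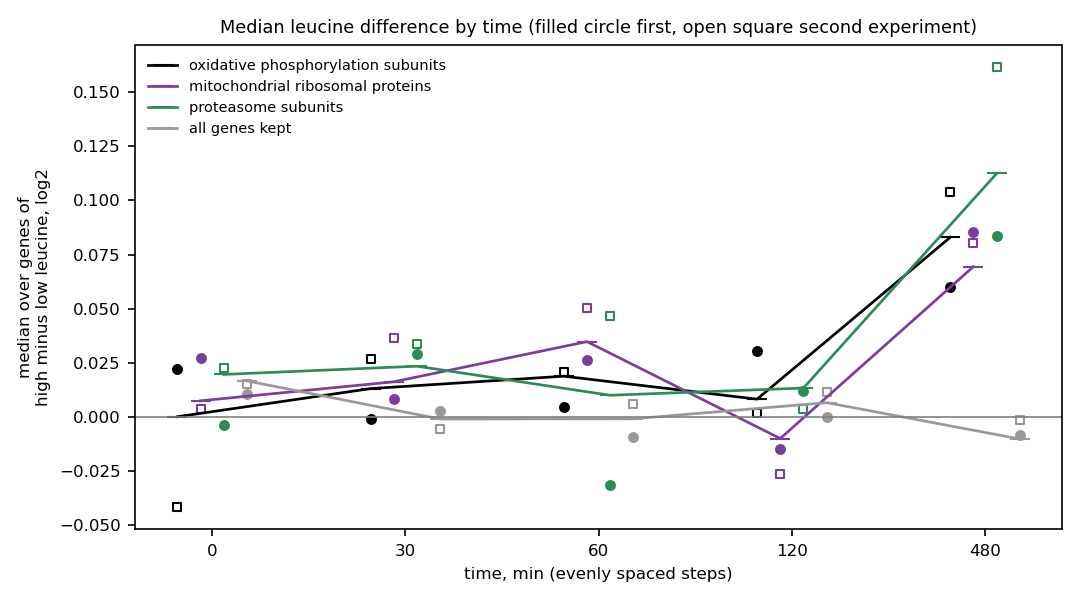
Median over genes of the high minus low leucine difference (log2) at each time, for the subunits, mitochondrial ribosomal proteins, proteasome subunits and all genes kept. Ticks joined by lines are medians of the mean difference, filled circles the first and open squares the second experiment. The subunits stay between 0.00 and 0.02 until 120 min and reach 0.08 at 480 min, beside 0.07 and 0.11 for the other complexes.

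The leucine difference at 480 min was set against that at 0 min by an interaction term, which uses the same 480 min arrays. With the block, 2 members rose more in high leucine (2.17% against 2.69% of all probe sets) and 0 less (against 1.13%). Without it 0 were called (0% of all probe sets). An unadjusted p under 0.05 was reached there by 7 members (7.61%, against 7.79% of all probe sets). NDUFB3 went from 1063 to 1038 and from 1014 to 769.0 in low leucine, and from 934.2 to 1237 and from 877.4 to 1019 in high leucine. It fell in both low pairs and rose in both high pairs, and its difference of differences was 0.45 ± 0.10 (adjusted p = 0.0266). ATP5F1E, the epsilon subunit in the central stalk of the ATP synthase, went from 4708 to 4239 and from 5569 to 4906 in low leucine, and from 4193 to 4379 and from 4618 to 5299 in high leucine. At 480 min alone its leucine difference was 0.08 and not called (adjusted p = 0.503), and at 0 min both high arrays lay below both low ones. Its difference of differences was 0.29 ± 0.07 (adjusted p = 0.0375). NDUFV1 reached -0.31 ± 0.08 and missed the threshold (adjusted p = 0.0556). With values as deposited 13 members were called and with median centring 11, each higher. The member median was then 0.20 and 0.21, and that of all probe sets 0.01 and 0.02. The share of all probe sets called is not given for these scalings. Leaving out 1 array gave 0 to 6. It gave 0 without the second low or the first high array at 0 min and without the second low array at 480 min. It gave 6 without the first low array at 0 min and 5 without the first low array at 480 min, and 1 without either high array at 480 min, either low array at 120 min or either high array at 60 min.

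The changes behind this differed between leucine levels and experiments. From 0 to 480 min in low leucine the 63 genes had a median change of -0.09, with 51 negative, but the experiments differed, with medians of 0.02 (first) and -0.19 (second). In high leucine the median was 0.02, with 0.06 (first) and -0.04 (second). In these quantile-normalised values the high leucine median was the farther from 0 in the first experiment and the low leucine median in the second. Over all genes the medians were -0.00 (-0.0035) in low and -0.03 in high leucine. The scaling moved this balance. Over member probe sets the high leucine median was 0.03, against 0.14 with values as deposited and 0.15 with median centring. In low leucine these medians were -0.07, -0.06 and -0.06.

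**Figure D4:**
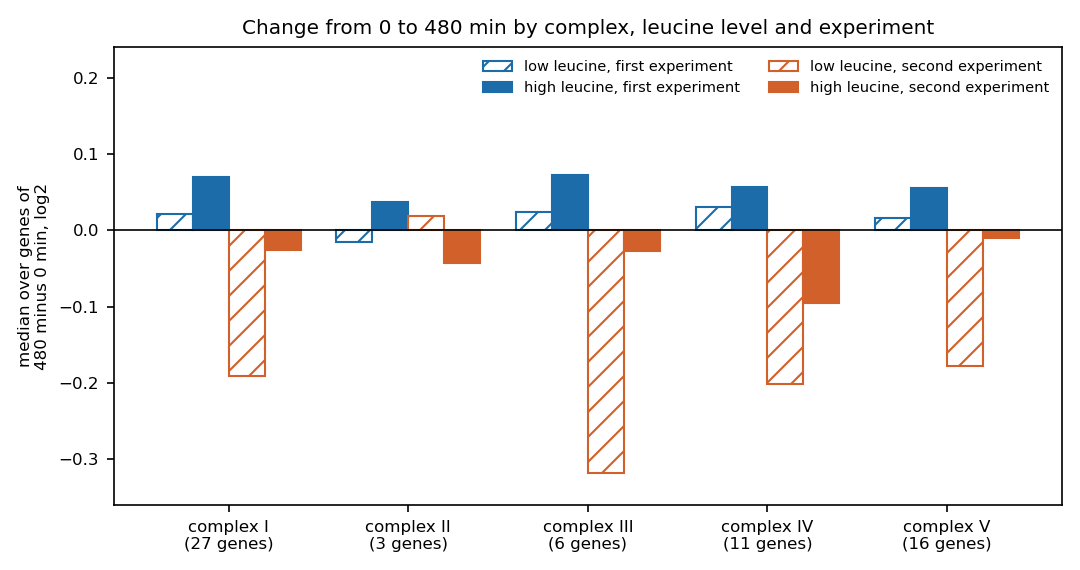
Median change from 0 to 480 min (log2) over the genes of each complex, by leucine level (hatched low, filled high) and experiment (colour). The hatched bars of the second experiment lie near -0.19 for complex I and -0.32 for complex III, and those of the first between -0.02 and 0.03.

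In low leucine 0 members were called from 0 to 480 min, either with the block (0.233% of all probe sets) or without it (0%). At an unadjusted p under 0.05 there were 22 (23.9%, against 15.5% of all probe sets) and 6 (6.52%, against 5.51%). The 3 members with the smallest p in the blocked fit included a weaker probe set of ATP5PO, a peripheral stalk subunit, at -0.25 ± 0.08 (adjusted p = 0.127). The others were ATP5PD, of the same stalk, at -0.21 ± 0.06 (adjusted p = 0.142), and UQCRQ of complex III at -0.22 ± 0.07 (adjusted p = 0.143). The brighter ATP5PO probe set was not among these 3. Its medians were 3385 and 2981 in the first and second experiment, against 572 and 436 for the weaker one. UQCRQ went from 4733 to 4514 in the first and from 5587 to 4294 in the second experiment. Without the first array at 0 min 6 members were called.

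In high leucine 0 members were called without the block (1.72% of all probe sets). An unadjusted p under 0.05 was reached there by 9 members (9.78%, against 14.2% of all probe sets). With the block 5 rose (5.43%, against 8.64%) and 2 fell (2.17%, against 6.61%). The members that rose were NDUFA3 by 0.27 ± 0.07 (adjusted p = 0.0203), NDUFB3 by 0.27 ± 0.07 (0.0233), and a probe set each of ATP5MC3 by 0.22 ± 0.06 (0.0148), of ATP5MJ, a small membrane subunit of the ATP synthase, by 0.22 ± 0.06 (0.0288), and of SDHC by 0.25 ± 0.08 (0.0424). NDUFA3 went from 1390.2 to 1651 and from 1239 to 1593. The called probe sets of ATP5MC3, ATP5MJ and SDHC were not the brightest of their genes. The brightest read 0.16 for ATP5MC3 (adjusted p = 0.189), 0.01 for ATP5MJ (adjusted p = 0.894) and 0.05 for SDHC (adjusted p = 0.63). For ATP5MJ and SDHC it had opposite signs in the 2 experiments.

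NDUFV1 fell from 2978 to 2374 and from 3519.9 to 2633, a log2 change of -0.35 ± 0.06 (adjusted p = 0.00133). SDHA fell from 2814 to 2372 and from 3223 to 2678, by -0.24 ± 0.07 (adjusted p = 0.0255). Both encode the flavin-binding subunits of their complexes. This comparison moved with the scaling: 19 rose and 1 fell with values as deposited, and 21 rose and 1 fell with median centring. The member median was then 0.14 and 0.15 in place of 0.03, and that of all probe sets 0.01 and 0.02 in place of -0.02. The share of all probe sets called under these scalings is not given. Leaving out 1 array gave 1 to 9 calls, with 1 without the first and 3 without the second array at 480 min and 4 without the first array at 0 min.

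Averaged over leucine levels, NDUFV1 alone fell from 0 to 480 min with the block, by -0.20 (adjusted p = 0.0076; 1.09% against 4.46% of all probe sets), and 0 members rose (against 6.49%). Without the block 0 were called (1.21% of all probe sets). An unadjusted p under 0.05 was reached there by 5 members (5.43%, against 12.2% of all probe sets). Without the first low array at 0 min 7 members were called, without the first high array at 0 min 5, and 2 without either low array at 60 min or the first high array at 480 min. At 30, 60 and 120 min against 0 min, 0 members were called with the block, against 0.0075%, 2.54% and 0.893% of all probe sets. At an unadjusted p under 0.05 there were 10, 10 and 5 (10.9%, 10.9% and 5.43%). Over all probe sets these shares were larger, at 13.4%, 23.9% and 19.5%.

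More members were called between experiments, with 10 arrays each, than between leucine levels at 480 min, with 2 arrays per group. The median absolute change of members was 0.08 between experiments and 0.10 for leucine at 480 min. The largest changes were between experiments, where members ranged from -0.95 to 0.56, against -0.23 to 0.39 for leucine at 480 min. The median standard errors of members were 0.03 and 0.07 in the blocked fit, so the 2 median changes differ in precision. In the second experiment 19 members were higher (20.7%, against 36.1% of all probe sets) and 28 lower (30.4%, against 26%). With values as deposited the split was 46 to 15, and with median centring 19 to 27. The 49 mitochondrial ribosomal protein genes had 12 higher and 22 lower, and the 33 proteasome genes 4 and 21. Beside this, 4 of 4 keratins kept by the filter were higher in the second experiment, with a median of 0.74. The summed intensity of the 7 biliary and epithelial markers ran from 12132 to 15169 in the first and from 20606 to 26784 in the second experiment. That of the 7 stellate and fibroblast markers ran from 18082 to 19083 and from 16843 to 19510.4. Their part in the members' difference was not tested.

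NDUFA5, an accessory subunit of the complex I matrix arm, differed most. Its lowest, median and highest values were 1085, 1260.2 and 1319 in the first and 393.8, 582.7 and 799.5 in the second experiment. All 10 arrays of the second lay below all 10 of the first, and the difference was -0.95 ± 0.06 (adjusted p = 4.69e-10). COX5A, a nuclear-encoded subunit of complex IV, had a median of 2953 in the first and 2226 in the second experiment, also without overlap, a difference of -0.33 ± 0.03 (adjusted p = 1.49e-07). Of the 92 members 6 had all second arrays below all first ones (6.52%, against 7.95% of all probe sets): NDUFA5, NDUFB4, NDUFS6, COX5A and a probe set each of COX5B and ATP5MC3. The reverse held for 5 (5.43%, against 7.34%): COX6A1 and a probe set each of SDHC, UQCRB, COX4I1 and ATP5ME.

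Other members that were lower in the second experiment included UQCRC2, a core protein of complex III, at -0.27 ± 0.03 and -0.25 ± 0.03 in its probe sets, and ATP5PO at -0.25 ± 0.03 and -0.16 ± 0.03. NDUFS6, a zinc-binding accessory subunit of complex I, was at -0.25 ± 0.04, and NDUFB3 and NDUFB4 at -0.22 each. NDUFS7, an iron-sulfur core subunit of complex I, was higher at 0.33 ± 0.06 and NDUFA7 at 0.27 ± 0.04. NDUFV1 was higher by 0.18 ± 0.03, UQCRC1 by 0.12 ± 0.04 and ATP5F1E by 0.18 ± 0.02. ATP5F1A was lower, at -0.12 ± 0.02, as were ATP5MC1 at -0.14 ± 0.04 and ATP5IF1 at -0.16 ± 0.05. SDHA at 0.06, NDUFS1 at -0.01, ATP5F1B at -0.01, ATP5MC2 at 0.02, COX7A2 at -0.08 and COX7A2L at -0.02 were not called.

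**Figure D5:**
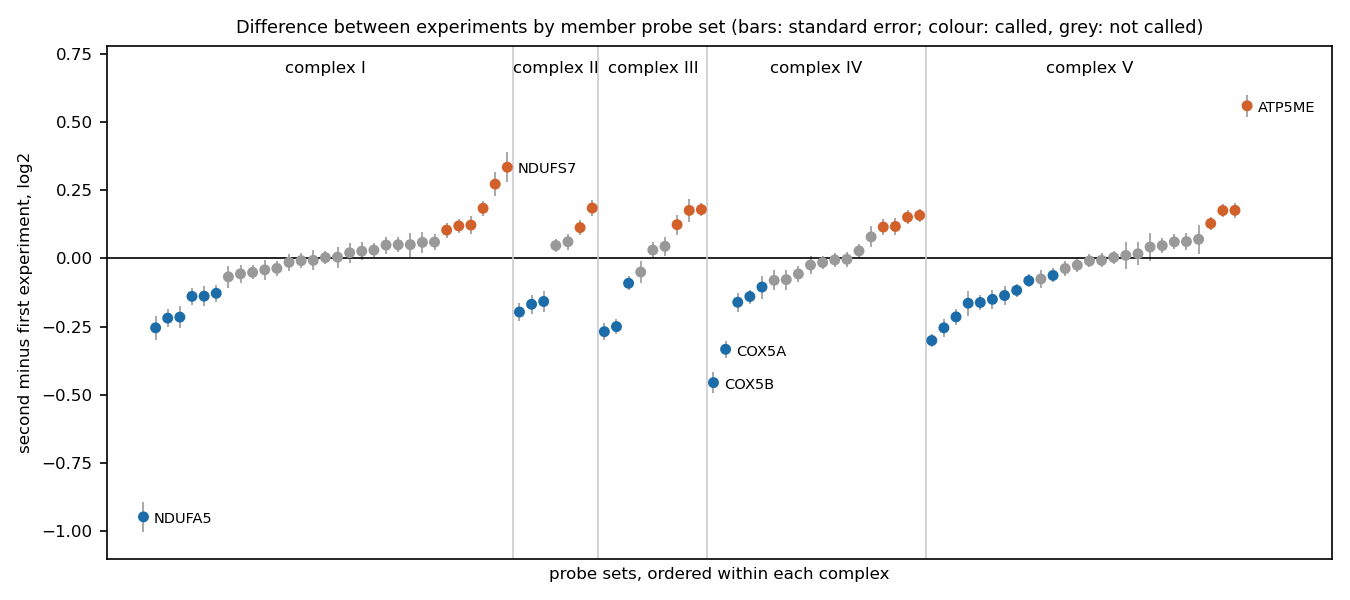
Second minus first experiment (log2) for each of the 92 member probe sets, sorted within its complex. Points are estimates and bars standard errors, coloured where called and grey where not. NDUFA5 lies lowest at -0.95 and a probe set of ATP5ME highest at 0.56.

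Probe sets of the same gene did not always read alike. The array design marks 19 of the 92 members as able to bind unrelated transcripts (names ending in _x_at) and 33 as shared by related ones (_s_at). COX5B had differences of -0.46 ± 0.04, -0.16 ± 0.03, -0.08 and -0.00 (-0.0034) between experiments in its 4 probe sets. Its most divergent probe set had a median of 2415 in the first and 1671 in the second experiment. ATP5ME, a subunit of the ATP synthase dimer interface, had 0.56 ± 0.04 in the probe set with medians of 1027 and 1594, and 0.18 ± 0.03 in the brighter one. Of 17 genes with several probe sets kept, 11 had the same sign throughout and 2 had opposite calls. SDHC was called at 0.18 in 1 probe set and at -0.17 and -0.20 in others, and SDHD at -0.16 and 0.11. Among the 40 members that are neither, 17 were called between experiments (42.5%, against 61.6% of all such probe sets). Over all 92 members the count was 47 (51.1%, against 62% of all probe sets).

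The early time course was also compared between the experiments. The mean of 60 and 120 min was set against 0 min in each experiment, over both leucine levels. The comparison between experiments called 1 member higher (1.09%, against 0.9% of all probe sets) and 0 lower (against 0.143%), with 16 at an unadjusted p under 0.05. The member was NDUFS6. Its means over leucine levels at 0, 30, 60, 120 and 480 min were 3242, 3239, 3106, 3088 and 3198 in the first experiment, and 2216, 2765, 2805, 2794 and 2646 in the second. At 0 min the second experiment read 2155 in low and 2278 in high leucine, its lowest values. The difference between experiments in this change was 0.38 ± 0.07 (adjusted p = 0.0118). The call was lost without either low array or the first high array at 0 min, and with median centring.

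Within the second experiment 2 members rose (2.17%, against 3.74%) and 2 fell (2.17%, against 1.39%). NDUFS6 rose by 0.32 ± 0.05 (adjusted p = 0.00133) and ATP5F1D, the delta subunit of the central stalk, by 0.25 ± 0.07 (0.0454). The brightest probe set of NDUFB8, an accessory membrane-arm subunit of complex I, fell by -0.22 ± 0.05 (0.0265). A weaker probe set of ATP5F1C, the gamma subunit, fell by -0.29 ± 0.08 (0.0427), with a median of 467 in the second experiment. The other ATP5F1C probe sets, all brighter, read -0.08, -0.04 and 0.06 (adjusted p = 0.419, 0.631 and 0.670). Means of the called NDUFB8 probe set went from 2913 at 0 min to 2575 and 2395 at 60 and 120 min. The other NDUFB8 probe sets did not show this fall, at -0.04 and 0.02 (adjusted p = 0.768 and 0.891). Without 1 of the second low arrays at 0 or 60 min 1 member was called, and 2 were called without the first low or the first high array at 30 min, the second low array at 120 min, or the second high array at 0 or 60 min. In the first experiment 0 members were called (0.0225% of all probe sets). An unadjusted p under 0.05 was reached there by 4 members (4.35%, against 13% of all probe sets). Over the 63 genes the change was more negative in the second experiment than in the first for 52, with a median of -0.08, against -0.01 over all genes.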

How the data were processed

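The files hold 1 deposited intensity per probe set and array, on a linear scale in arbitrary units. The authors' summarisation and scaling are not given in the sources used here. Values were taken as log2 after adding 165.2 (the 10th percentile of an array, as the median of all arrays) and quantile normalised. Normalised intensity is 2 to that value, less this pseudocount. The 40% of probe sets with the lowest mean were dropped, leaving 13329 of 22215. A probe set was named only where the platform annotation gave 1 symbol (19065, against 1043 with several and 2107 with none), updated through RefSeq; 6 subunit probe sets with several symbols were not used. A pseudogene and a non-coding RNA that share the names were left out. SDHB, UQCRFS1 and NDUFA4 were not analysed here.

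All comparisons were fitted in limma 3.58.1 (R 4.3.3) over 20 arrays with 1 mean per group, an intensity-dependent prior variance and two-sided p-values, adjusted by Benjamini-Hochberg over the 13329 and called under 0.05. The planned fit had no experiment term (10 residual degrees of freedom). Experiment numbers come from the labels. Deviations from group means correlated at 0.808 to 0.928 within experiments over 45 group pairs, so the numbers pair the arrays and the fit with the experiment as a block (9 degrees of freedom) is printed beside it. The comparison of experiments has that term by design, and the early time course was fitted with 1 mean per experiment and time and a leucine term.

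Members and lists were chosen with earlier results of these data known. Named were called members (up to 15 each way), the 3 smallest p where fewer were called, a fixed list of catalytic, core and isoform subunits, and the extremes of each complex. The fits were tested on simulated data. Alternatives were other scalings, pseudocounts and filters, no variance trend, 1 probe set per gene, no _x_at or _s_at probe sets, and leaving out each array. The number of arrays limits the precision.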

Additional observations from a re-analysis of the deposited data

Results flagged for a closer look

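NDUFS6 changed differently from 0 min to the mean of 60 and 120 min in the second than in the first experiment, by 0.38 on the log2 scale. It was the only member called there (1.09%, against 0.9% of all probe sets). In the second experiment its mean was 2216 at 0 min and between 2646 and 2805 later. NDUFB3 and ATP5F1E were singled out because their leucine differences at 480 min and at 0 min were not the same. The difference of differences, 0.45 and 0.29 on the log2 scale, passed its test in the fit with the experiment block. They were 2 of 92 members (2.17%, against 2.69% of all probe sets). At 0 min the high leucine arrays of both genes lay below the low ones, and at 480 min ATP5F1E was not called.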

How the results depend on the processing

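The replicate block raised the count of called members from 0 to 6 for leucine at 480 min, from 0 to 7 for 480 against 0 min in high leucine, from 0 to 2 for the interaction of leucine with 480 against 0 min and from 0 to 1 for 480 against 0 min over both levels. It changed no other count of calls. All further counts are of the blocked fit unless stated. Values as deposited gave 1 for leucine at 0 min (0 with quantile normalisation), 20 for 480 against 0 min in high leucine (7), 13 for the interaction (2) and 1 for 60 against 0 min (0). Median centring gave 22, 11 and 2 for the last 3, 1 for high leucine without the block and 0 for the early course between experiments (1). No filter gave 3 for leucine at 480 min (6) and 2 for the early course in the second experiment (4). A filter at the 60th percentile and no variance trend each gave 4 for the interaction and 2 for 480 against 0 min over both levels (1). With 1 probe set per gene there were 2 for the latter and 4 for high leucine. Without _x_at and _s_at probe sets there were 3 for leucine at 480 min, 4 for high leucine, 1 for the interaction, 17 between experiments (47) and 2 for the early course in the second experiment; this alternative counts calls of the same fit over 40 of the 92 members. Shares of all probe sets called under other scalings and filters are not given, so these counts cannot be set against them. The other causes were not tested.

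Leaving out 1 array gave 0 to 7 for leucine at 480 min, 0 to 6 for low leucine, 1 to 9 for high leucine, 0 to 6 for the interaction, 1 to 7 for 480 against 0 min over both levels, 45 to 48 between experiments, 0 to 1 for the early course between experiments and 1 to 5 within the second. A group left with 1 array is assumed to vary like the others. No called change of a named member turned sign. Under the alternatives other than leaving out an array, 902 values of named members kept their side of the threshold, 18 lost and 10 gained a call, and 122 median changes moved by less than the spread and 22 by more. Leaving out an array, 2324 values of named members kept their side, 109 lost and 7 gained a call. Of 464 median changes over all alternatives 25 turned sign, none of them farther from 0 than 0.052 as reported. Between experiments the member median went from -0.01 to 0.08 with values as deposited, while that of all probe sets went from 0.03 to 0.11. With 2 arrays per group, small differences are not resolved, and _x_at probe sets can carry signal of other transcripts.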
